A study of Caenorhabditis elegans with 18 samples.

Results

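Adult Caenorhabditis elegans kept in iron-treated, metal-contaminated soil were compared between the sampling labelled 4 months and the sampling labelled 0 days. The comparison takes 6 of the 18 arrays of the study, 3 for each time, chosen by their labels alone. All worms were of N2, the wild-type laboratory strain, and spent 48 h at 20 °C in 0.3 g of soil with lead at 2700 mg/kg, zinc at 4200 mg/kg and cadmium at 310 mg/kg. Both groups received soil amended with nZVI (nanoscale zero-valent iron, fine metallic iron that binds metals in polluted ground), so the iron itself is common to them. The control soil, which serves below as the background, carried the same metals without nZVI and was sampled at the same times. The labels give no event from which the times are counted and describe the collected worms as young adults, grown in liquid culture from early larvae. Whether the same culture served both times is not stated, so worm culture, worm stage and sampling time cannot be told apart. RNA of whole worms was measured on gene arrays whose deposited values are normalised log2 signals, and 25546 of the 28387 probe sets on the array carry a single gene symbol. Those 25546 are described here.

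The nematode's outer cuticle is a sheet of cross-linked collagens laid down by the epidermis and replaced at every moult, and each stage uses its own subset of a large collagen family. The hermaphrodite makes sperm first and oocytes afterwards, and its intestine then supplies yolk protein to the growing oocytes. Worms meet excess iron by storing it in ferritin, and meet cadmium and zinc with metallothioneins and phytochelatins, which bind these metals.

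Array medians across the study lay between 3.847 and 3.992, and within either nZVI group compared here the arrays correlated at 0.9885 to 0.9925. At 14 days nZVI array 2 stood apart from the other arrays of its group (r from 0.98 to 0.9811, against 0.9941 between arrays 1 and 3), and at 4 months control arrays 1 and 3 had the narrowest interquartile ranges (3.803 and 3.702, against at least 4.072 on all others). Each touches the nZVI comparison only through the pooled spread, and the second also enters the comparison between soils directly. The control 4-month group had the largest spread of the 6 groups (median SD of a probe set 0.259). No detection calls accompany the values, so a level near or below the array median cannot be told from background, and a fold change from or to such a level (bli-1 at 0 days, for example) is that of the signals and may be smaller than the change in RNA. The labels speak of independent RNA but not of separate cultures, so the spread between arrays, 0.194 (median SD of a probe set) at 0 days and 0.167 at 4 months, may be technical.

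Over all 28387 probe sets, limma called 3402 higher (12%) and 2896 lower (10.2%) at 4 months than at 0 days, at an adjusted p under 0.05. These shares are the background for every list count below. The total of 6298 was 22.2% of those tested, and without 4-month array 2 it was 4115. Among the probe sets with a single symbol 3223 rose and 2461 fell, and their median log2 fold change was 0.02. Large changes were more often falls. At least 2-fold, 858 rose and 1001 fell, and at least 8-fold, 32 rose and 58 fell. The same fit called 9.71% of probe sets between these times in control soil (3.38% higher, 6.33% lower) and called the change different between the soils for 4.32% (2.96% higher and 1.35% lower in nZVI soil). Without control 4-month arrays 1 and 3 the soil difference was called for 424 probe sets in place of 1225, and the excess of higher ones was gone (48.8% of the called were higher, in place of 68.7%). In whole-worm RNA a smaller number of cells of a type and less RNA per cell cannot be told apart, which holds for every tissue-bound gene below.

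Cuticle genes made up most of the largest rises. The struts that join the layers of the adult cuticle are built from bli-1 and bli-2, whose mutants blister. On the 0-day arrays bli-1 read 3.31, 3.56 and 3.69, and on the 4-month arrays 7.75, 8.08 and 8.74. The signal of bli-2 went from 4.03, 3.64 and 3.26 to 8.62, 8.69 and 8.88. Neither gene had any overlap between the times, as the rule that named the largest changes required. Of 5684 called single-symbol probe sets 5584 had none either, so a lack of overlap adds little to a call. The change was 4.67 ± 0.36 (log2 fold change ± SE, 25.4-fold, adjusted p = 1.3e-07, limma) for bli-1 and 5.09 ± 0.46 (34.1-fold, adjusted p = 8.5e-07) for bli-2. The gene bli-6, named for the same blistered mutants, changed by 4.40 ± 0.26.

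The largest rise belonged to rol-1, named for roller mutants that turn about their long axis. It read 4.38, 4.22 and 4.04 at 0 days and 9.81, 9.80 and 10.29 at 4 months, a change of 5.75 ± 0.27 (53.8-fold, adjusted p = 9.3e-10). The cuticle collagen col-38 stood at 3.70, 5.18 and 4.36 and then at 9.76, 9.83 and 9.99 (5.45 ± 0.39, 43.6-fold, adjusted p = 6.3e-08). The 0-day arrays of col-38 differed among themselves by more than its 4-month arrays did, and all lay far below them. Among the 15 largest rises were 7 more col genes, col-138 (5.22 ± 0.25), col-162 (4.91 ± 0.28), col-161 (4.57 ± 0.29), col-73 (4.43 ± 0.21), col-63 (4.26 ± 0.35), col-71 (4.19 ± 0.26) and col-133 (4.18 ± 0.38). The other 3 of these 15 have names taken from their clones: Y51H7C.13 (5.64 ± 0.32), E01G4.6 (5.33 ± 0.28) and Y51H7C.1 (4.57 ± 0.29). In the WBcel235 annotation Y51H7C.13 and Y51H7C.1 are neighbours on chromosome II with no protein-coding gene between them. Over these 15 genes single 0-day arrays ran from 2.99 to 5.99 and single 4-month arrays from 7.35 to 10.51. All 15 were already at 6.39 to 9.59 on the 14-day arrays. Control soil changed by 0.34 to 2.00, and the difference between soils was called for all 15 (adjusted p from 1.3e-06 to 0.00126). The 15 were chosen for their nZVI change, which is part of that difference, so their calls are not a separate result. Over all probe sets the soil difference was called for 4.32%. On the control arrays at 0 days bli-1 read 4.07, 4.34 and 4.39 and col-38 5.72, 7.13 and 6.76, above every nZVI array of that time.

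**Figure D1:**
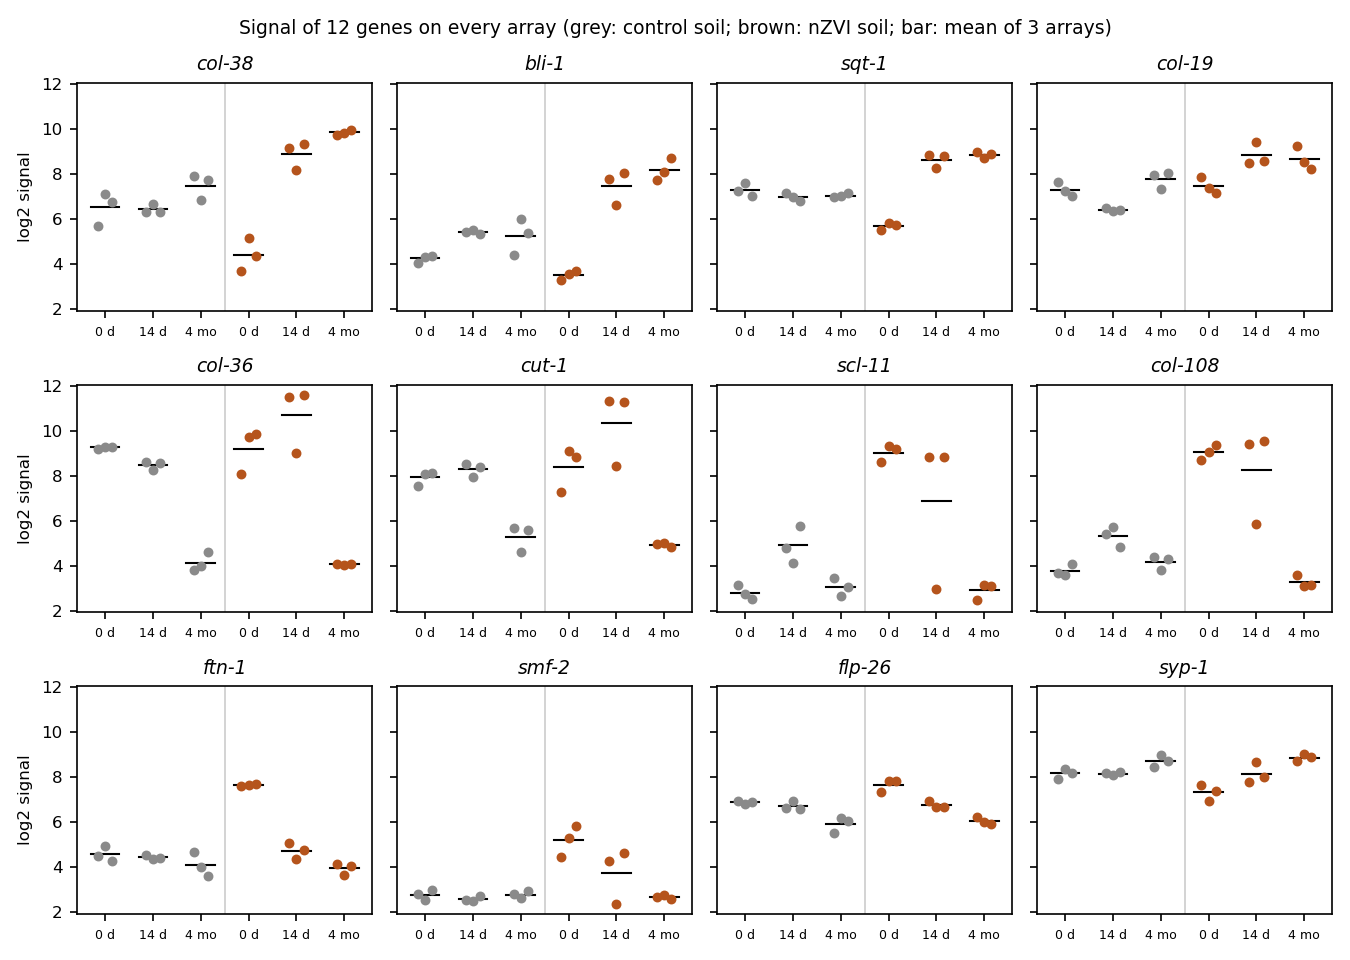
Log2 signal (vertical axis) of 12 genes on each of the 18 arrays, by sampling time in control soil (grey) and nZVI soil (brown); bars are means of 3 arrays. In nZVI soil col-38 went from 3.70, 5.18 and 4.36 to 9.76, 9.83 and 9.99, and ftn-1 from 7.60, 7.67 and 7.68 to 4.15, 3.66 and 4.06; scl-11 at 14 days read 8.85, 3.00 and 8.83.

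As a list, 10 of 10 adult cuticle markers rose, with a median of 4.16 beside 0.02 over all single-symbol probe sets and 0.84 in control soil. The list holds bli-1 and col-38, described above, and was drawn up with earlier results of these data known. Its count is therefore not separate from those rises. Their mean log2 signal was 4.6 to 5.01 on the 0-day arrays and 8.04 to 8.28 at 4 months, with 5.46 to 5.72 and 6.15 to 6.58 in control soil. The best-known adult collagen, col-19, was among the smaller changes: it read 7.89, 7.38 and 7.17 and then 9.26, 8.53 and 8.22 (1.19 ± 0.29, 2.28-fold, adjusted p = 0.00643), and the difference from control soil was not called (adjusted p = 0.341). Body-shape collagens, in which mutations make worms short, squat or rolling, rose in 13 of 19 genes and fell in none (3 falls with only the 6 arrays compared, 4 without nZVI 14-day array 2 and 1 after centring), with a median of 1.79 (control soil 0.07, 0 called). The collagen sqt-1 stood at 5.53, 5.85 and 5.77 at 0 days and at 9.0, 8.73 and 8.89 at 4 months, while control soil held it at 7.24, 7.61 and 7.02 and 6.97, 7.02 and 7.17. Its change of 3.16 ± 0.18 differed from that of control soil by 3.39 (adjusted p = 1.3e-06). The changes of sqt-2 (2.79 ± 0.14) and dpy-5 (3.05 ± 0.22), 2 further body-shape collagens, were of the same kind. The soil difference was called for 11 of the 19. The stage lists share genes with the collagen lists, and probe sets of collagens with near-identical sequence may pick up each other's RNA.

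The col family as a whole split. Of 153 col genes 66 rose and 25 fell, with a median of 0.44. At least 4-fold, 25 rose and 15 fell, and at least 16-fold, 9 rose and 9 fell. In control soil 20 rose and 17 fell. The difference between soils was called for 33 in the direction of a larger rise in nZVI soil and for 1 in the other direction.

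**Figure D2:**
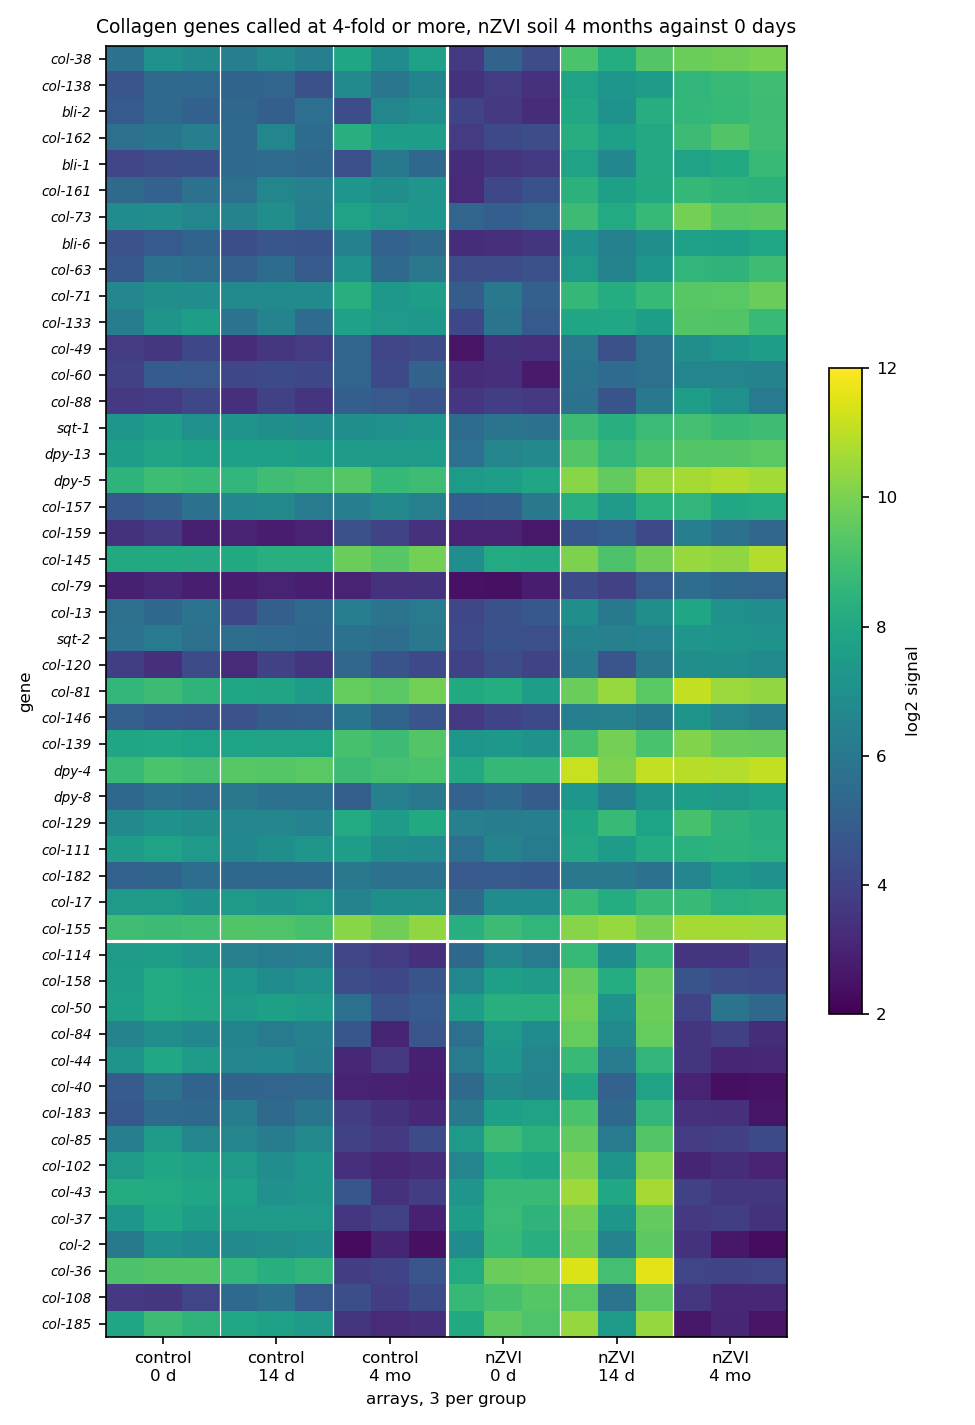
Log2 signal (colour) of the 49 collagen genes that changed at least 4-fold, 1 row per gene and 1 column per array, 3 arrays per group. The 34 genes above the line rose and the 15 below it fell in nZVI soil; most of the lower 15 are also dark in control soil at 4 months, and nZVI array 2 at 14 days is darker there than arrays 1 and 3.

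A second set of cuticle genes fell as far as the first rose, and did so in both soils. The collagen col-36 read 8.1, 9.70 and 9.83 at 0 days and 4.10, 4.04 and 4.08 at 4 months (-5.14 ± 0.52, 35.2-fold, adjusted p = 2.8e-06). Control soil gave 9.19, 9.29 and 9.3 and 3.80, 4.01 and 4.62, a change of -5.12 ± 0.52, and no difference between soils was called (adjusted p = 0.99). Of the 15 largest falls 5 belonged here: col-185 (-6.19 ± 0.56), the hedgehog-related gene grl-20 (-5.84 ± 0.52), col-36, the dauer collagen col-2 (-5.11 ± 0.64) and col-37 (-4.62 ± 0.49). Control soil changed by -5.12 to -4.06 in these 5, and their soil difference was not called (adjusted p from 0.429 to 0.99). The cuticlin cut-1, known from the ridges of the dauer cuticle, went from 7.27, 9.10 and 8.85 to 4.98, 5.03 and 4.83 (-3.46 ± 0.59, 11-fold, adjusted p = 5.1e-04), and col-40 changed by -3.62 ± 0.51. At 14 days cut-1 read 11.32, 8.43 and 11.29 in nZVI soil, with arrays 1 and 3 above every 0-day array and array 2 among them. The hedgehog-related grl-25 fell in both soils (-4.02 ± 0.51, control soil -3.97), and grl-4 rose (1.89 ± 0.21).

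Other lists tied to the cuticle and the moult moved less. Of 57 hedgehog-related genes, secreted proteins many of which the epidermis makes, 6 rose and 12 fell (median -0.13, 5 and 7 without 4-month array 2). Of 38 cuticlins 1 rose and 6 fell, and the falls numbered 10 with only the 6 arrays compared, 4 without 0-day array 1, 2 without 0-day array 2 or 4-month array 2, 3 without 0-day array 3 or 4-month array 3. The 1 rise was lost without 0-day array 1 or 2 or 4-month array 2 or 3. Among 26 moulting genes 4 rose and 1 fell (median 0.12), and the 1 fall was lost without any of 0-day arrays 1 or 2 or 4-month arrays 1 or 2, while the 6 arrays alone gave 6 rises and 2 falls. Astacin proteases, several of which process the cuticle, rose in 7 and fell in 3 of 36. Of 16 dauer and starved-larva markers 3 rose and 5 fell (median -0.26, control soil -0.37). The small heat shock protein hsp-12.6 and the linker histone hil-1, both on that list, changed by -3.80 ± 0.30 and -2.05 ± 0.24.

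A further 10 of the 15 largest falls differed from control soil by the test (adjusted p from 1.6e-04 to 0.0395), although for scl-11, spp-11, tyr-3, scl-13, T26C12.2 and T05B4.12 this call was lost without control 4-month arrays 1 and 3. All 10 were high on all 3 nZVI arrays at 0 days, and control soil changed by -0.70 to 0.40 in them. Like the largest rises, they were chosen for their nZVI change, which is part of the difference tested. The secreted protein gene scl-11 read 8.60, 9.3 and 9.19 at 0 days and 2.51, 3.13 and 3.09 at 4 months, while control soil gave 3.15, 2.77 and 2.52 and 3.45, 2.64 and 3.07. Its change was -6.12 ± 1.00 (69.7-fold, adjusted p = 3.6e-04), and the difference between soils -6.37 (adjusted p = 0.0171). The largest fall of all was that of Y59A8B.26, from 9.36, 9.66 and 9.80 to 2.67, 2.85 and 2.53 (-6.93 ± 0.66, 122-fold, adjusted p = 1.5e-06). The others were the collagen col-108 (-5.76 ± 0.63), the saposin-like spp-11 (-5.29 ± 0.74), scl-12 (-5.06 ± 0.59), the fungus-induced-protein-related fipr-25 (-4.86 ± 0.42), the tyrosinase tyr-3 (-4.68 ± 0.61), scl-13 (-4.66 ± 0.62), T26C12.2 (-4.64 ± 0.66) and T05B4.12 (-4.62 ± 0.79). In WBcel235, scl-12 and scl-13 are neighbours on chromosome V. Across the 10, single 0-day arrays ran from 6.44 to 9.80, single 4-month arrays from 2.15 to 4.52, and control arrays at 0 days from 2.03 to 5.03. At 14 days col-108 read 9.42, 5.85 and 9.53 and spp-11 7.17, 2.85 and 7.29, with nZVI arrays 1 and 3 high and array 2 low. Of 24 scl genes 1 rose and 8 fell, with a median of -0.18.

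Germline genes rose by modest amounts. Of 26 meiotic germline markers 22 rose and none fell (median 0.89, control soil 0.27 with 1 called), although only 13 were called without 0-day array 2. The synaptonemal complex gene syp-1, needed to hold paired chromosomes together, read 7.68, 6.93 and 7.40 and then 8.70, 9.02 and 8.91. All its 4-month arrays lay above all its 0-day arrays, and it changed by 1.54 ± 0.22 (2.91-fold, adjusted p = 1.3e-04). The chromosome-axis genes him-3 (1.43 ± 0.22) and htp-3 (1.39 ± 0.22) rose to a like degree, as did daz-1, an RNA-binding protein needed for oogenesis (1.19 ± 0.19). The list's mean signal was 6.58 to 7.17 at 0 days and 7.75 to 7.91 at 4 months, and in control soil 7.46 to 7.62 and 7.65 to 7.88. Oocyte and eggshell genes rose in 17 of 25 and fell in none (median 0.71), but in 5 without 0-day array 2 and in 5 without 4-month array 2. Examples were pie-1, which guards germ-cell fate in the embryo (1.45 ± 0.24), egg-5, an egg-activation protein (1.28 ± 0.23), the polarity gene mex-5 (0.88 ± 0.17) and the eggshell proteoglycan cpg-1 (0.82 ± 0.18). Replication and mitosis genes rose in 14 of 27 and fell in none (median 0.57, and 9 without 0-day array 2 or 4-month array 1), among them cyclin E, cye-1 (1.02 ± 0.15), and the spindle checkpoint gene bub-1 (0.89 ± 0.15). Over these 3 lists the soil difference was called for 1 gene in all.

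Of 5 yolk protein genes 4 rose. The yolk gene vit-4 read 4.31, 5.17 and 4.50 at 0 days and 6.72, 6.69 and 7.44 at 4 months (2.29 ± 0.32, 4.88-fold, adjusted p = 8.0e-05), vit-1 changed by 2.2 ± 0.44 and vit-6 by 1.25 ± 0.29. The exception was vit-2, at 11.05, 10.99 and 11.20 and 11.54, 11.32 and 11.29, whose 0.30 ± 0.21 was not called (adjusted p = 0.369) although its arrays did not overlap. Several of the yolk genes are close copies of each other, and the probe sets of such copies may not separate them. Sperm genes gave 16 rises and 2 falls in 58 (median 0.38, control soil -0.31 with 2 higher and 8 lower). The counts were 15 and 1 without 0-day array 1, 10 and 1 without 0-day array 2, 9 and 1 without 4-month array 2, 11 and 1 without 4-month array 3. The dysferlin homologue fer-1, which sperm need for membrane fusion, went from 4.16, 3.78 and 3.87 to 5.82, 6.24 and 6.04 (2.1 ± 0.22, 4.28-fold, adjusted p = 3.9e-06). The fertilisation gene spe-36 changed by 2.23 ± 0.38 and the kinase gene spe-6 by 1.23 ± 0.19, and ssp-28, of a sperm-specific family, fell by 1.44. Embryonic markers hardly moved, with 1 rise and 1 fall in 21 (median 0.10), and both calls were lost without 0-day array 2 or 3 or 4-month array 1 or 3. Of 12 male markers 1 rose (none without 0-day array 2 or 3 or 4-month array 2 or 3).

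**Figure D3:**
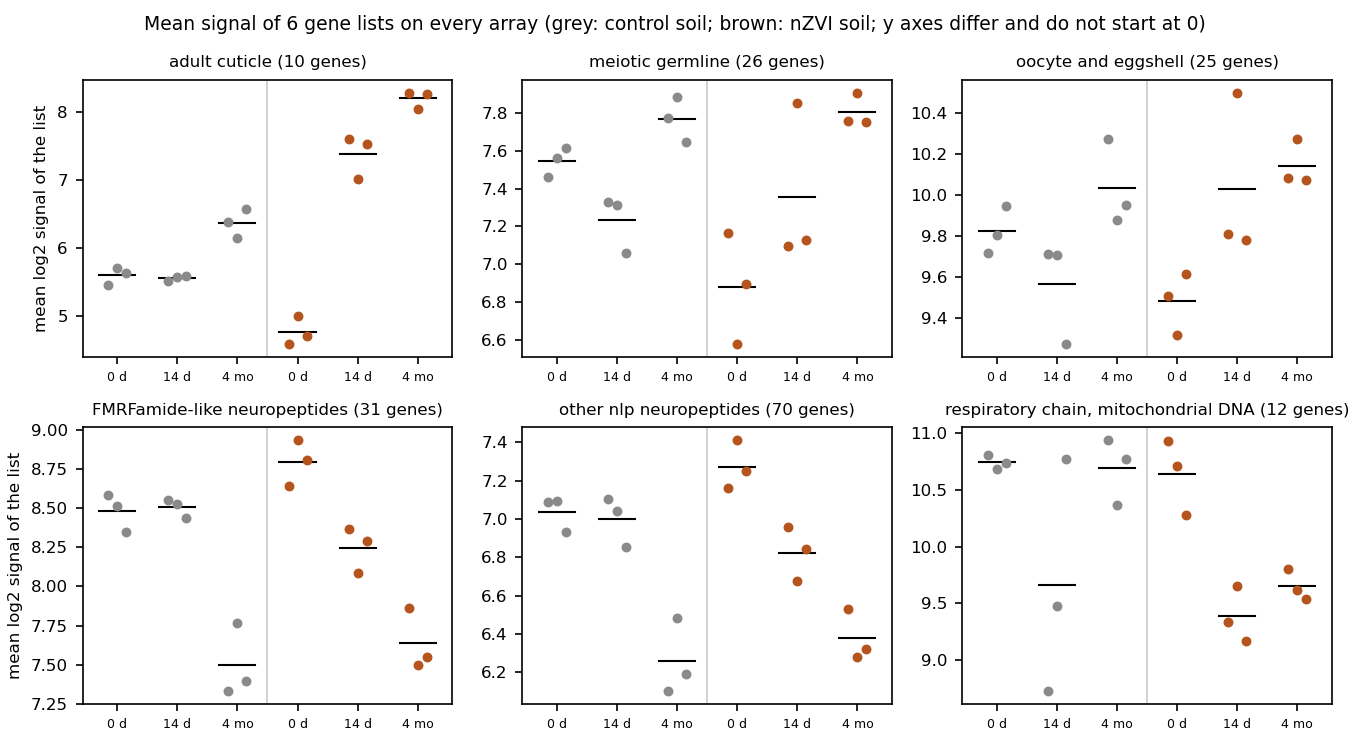
Mean log2 signal of 6 gene lists on each array, by time in control (grey) and nZVI (brown) soil; bars are means of 3 arrays and the vertical axes differ. Meiotic germline genes went from 6.58 to 7.17 at 0 days to 7.75 to 7.91 at 4 months in nZVI soil, and FMRFamide-like neuropeptides from 8.65 to 8.94 to 7.49 to 7.86.

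Neuropeptide genes fell almost as a body, in both soils. FMRFamide-like peptides, short signals released by neurons, fell in 29 of 31 genes with a median of -1.16, and in control soil in 23 with a median of -0.99. The gene flp-26 read 7.35, 7.85 and 7.82 at 0 days and 6.22, 6.02 and 5.93 at 4 months (-1.62 ± 0.18, 3.07-fold, adjusted p = 8.3e-06). Its change in control soil was -0.98 ± 0.18, and the difference was not called (adjusted p = 0.161). The falls of flp-9 (-1.17 ± 0.13), flp-27 (-1.42 ± 0.17) and flp-16 (-1.1 ± 0.14) were similar in size. Of 70 other neuropeptide-like nlp genes 50 fell and 2 rose (median -0.97, control soil -0.84 with 43 lower), with nlp-50 (-2.07 ± 0.24), nlp-7 (-1.48 ± 0.16) and nlp-41 (-1.56 ± 0.19) as examples. The 2 rises were 0 without 0-day array 1 and 1 without 0-day array 2 or 3 or 4-month array 1 or 2. The difference between soils was called for 1 flp gene and no nlp gene of this list.

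Insulin-like peptides, hormones that act through the DAF-2 receptor, fell in 15 of 40 and rose in 1 (median -0.47, control soil -0.35). The insulin-like gene ins-20 stood at 6.68, 6.17 and 6.58 and then at 4.69, 3.95 and 4.52 (-2.09 ± 0.22, 4.25-fold, adjusted p = 3.9e-06), and it differed from control soil by -1.50 (adjusted p = 0.0101). For ins-8 (-1.77 ± 0.22) the soil difference was also called (adjusted p = 0.0184), while for ins-18 (-1.71 ± 0.23) and ins-23 (-2.05 ± 0.30) it was not. Neither ins-20 nor ins-8 kept that call without control 4-month arrays 1 and 3, and ins-8 also lost it without control 4-month array 3, nZVI 0-day array 3 or nZVI 4-month array 2. General neuron markers fell in 6 of 16 (median -0.40, control soil -0.39), with 2 without 0-day array 2 or 4-month arrays 2 or 3, 3 without 4-month array 1. The synaptic fusion gene ric-4 fell by 1.42 ± 0.27 and the synaptotagmin snt-1 by 0.88 ± 0.20. The neuron list averaged 8.47 to 8.54 at 0 days and 8.03 to 8.08 at 4 months in nZVI soil. In control soil it averaged 8.17, 8.19 and 8.38 at 0 days and 7.40, 8.30 and 7.65 at 4 months. The control fall was thus that of 4-month arrays 1 and 3, and array 2 lay among the 0-day arrays. In nZVI soil the rise of germline markers and the fall of neuron markers went together with the neuropeptide falls. In control soil, where neuropeptide genes also fell, the meiotic germline list had a median of 0.27 with 1 gene called. The part of germline and neuron markers in the neuropeptide falls was not tested. Of 271 nuclear hormone receptors 11 rose and 32 fell (9 and 20 without 4-month array 2), which is 4.06% and 11.8% beside 12% and 10.2% over all probe sets. Of 1280 chemoreceptors 19 rose and 21 fell, both below those shares. Most chemoreceptor probe sets were dim, 1254 with a mean under 4, and the rises and falls numbered 9 and 17 without 0-day array 2, 10 and 13 without 0-day array 3, 11 and 11 without 4-month arrays 1 or 3, 14 and 7 without 4-month array 2.

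Ferritin transcript, higher in nZVI than in control soil at 0 days, overlapped the control arrays at 4 months. The intestinal iron-storage gene ftn-1 read 7.60, 7.67 and 7.68 at 0 days and 4.15, 3.66 and 4.06 at 4 months. Control soil gave 4.50, 4.93 and 4.30 and 4.66, 4.00 and 3.60, so the nZVI arrays stood above every control array at 0 days and among them at 4 months. The change was -3.69 ± 0.24 (12.9-fold, adjusted p = 1.7e-08) and the difference between soils -3.21 (adjusted p = 5.9e-05). At 14 days it already read 5.07, 4.36 and 4.76. The other ferritin, ftn-2, fell by 0.50 ± 0.12 (1.42-fold, adjusted p = 0.00461).

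Genes for iron transport did not move as one. The metal importer smf-2 read 4.47, 5.33 and 5.85 and then 2.69, 2.75 and 2.58 (-2.54 ± 0.41, 5.80-fold, adjusted p = 3.3e-04), against a control change of 0.01. Its 0-day arrays spread over more than 1 log2 unit and all lay above the 4-month arrays. The iron exporters went opposite ways: fpn-1.1 rose by 1.31 ± 0.18 and fpn-1.2 fell by 1.03 ± 0.22, and for neither was a difference from control soil called (adjusted p = 0.245 and 0.529). In the list of 10 iron genes 1 rose and 4 fell (median -0.25). Of 13 heme-trafficking genes 2 rose, the heme-responsive hrg-11.2 (1.71 ± 0.26) and hrg-11.4 (1.02 ± 0.22), and 4 with only the 6 arrays compared or with array weights. Zinc transporters rose in 3 of 20, and in 1 without 0-day array 2, 4-month array 2 or 4-month array 3. Array weights gave 3 rises and 2 falls in them.

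The genes that handle cadmium split between the metallothioneins and the phytochelatin route. The cadmium-responsive cdr-1 read 7.34, 7.26 and 7.01 at 0 days and 8.52, 8.35 and 7.98 at 4 months, with no overlap (1.08 ± 0.17, 2.11-fold, adjusted p = 3.0e-04). Control soil changed by -0.40 ± 0.17, and the difference was called (adjusted p = 0.00228). Phytochelatin synthase, pcs-1, rose by 1.01 ± 0.17, and hmt-1, the transporter that moves phytochelatins, by 1.23 ± 0.19, the latter again beyond control soil (adjusted p = 0.0247), a call lost without control 4-month arrays 1 and 3 and without any of control 0-day array 3, nZVI 0-day arrays 2 or 3 or nZVI 4-month arrays 2 or 3. Both metallothioneins fell in both soils. For mtl-1 the arrays gave 11.75, 11.73 and 11.40 and then 11.01, 10.73 and 10.55 (-0.86 ± 0.18, control soil -1.49). For mtl-2 they gave 12.17, 12.17 and 12.16 and then 11.80, 11.40 and 11.52 (-0.59 ± 0.15, adjusted p = 0.00958, control soil -0.71), and without 4-month array 2 mtl-2 was not called (-0.51, adjusted p = 0.0577). The metal-responsive numr-1 read 11.08, 10.93 and 9.88 and 11.34, 10.85 and 10.52, its groups overlapped, and 0.27 ± 0.29 was not called (adjusted p = 0.571). In all, 4 of 13 detoxification genes rose and 3 fell, with a median of -0.02. The largest log2 fold change of this list was 2.03, for numr-2.

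Of 12 genes of the response to low oxygen and sulphide 7 rose. The sulphide oxidase sqrd-1, which clears hydrogen sulphide in mitochondria, read 5.26, 5.29 and 5.43 and then 6.94, 7.42 and 7.66, while control soil gave 7.49, 7.17 and 7.28 and 6.49, 7.34 and 6.82. The change was 2.01 ± 0.21 (4.04-fold, adjusted p = 5.5e-06), and the soil difference 2.45 (adjusted p = 2.0e-04). The prolyl hydroxylase phy-2, which modifies collagen and answers to the hypoxia factor HIF-1, went from 6.60, 6.65 and 6.91 to 8.39, 8.84 and 8.96 (2.01 ± 0.20, 4.03-fold, adjusted p = 2.8e-06). The 1 gene of the list that fell was vhl-1, which marks HIF-1 for destruction (-0.93 ± 0.21). The median was 0.48 (control soil -0.39), and the rises numbered 3 without 0-day arrays 1 or 2 or 4-month array 3, 4 without 0-day array 3 or 4-month array 1, 2 without 4-month array 2. The soil difference was called for 5 of the 12.

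Oxidant and heat shock genes gave calls in both directions. Targets of SKN-1, the main oxidant-response factor, rose in 3 and fell in 2 of 16 (median 0.24). That is 18.8% and 12.5%, near the 12% and 10.2% over all probe sets for so short a list. The nitrilase gene nit-1 rose by 0.91 ± 0.17. The standard SKN-1 reporter gst-4 read 6.43, 6.51 and 5.68 and 6.62, 6.88 and 6.88 and was not called (0.59 ± 0.26, adjusted p = 0.121), nor was gcs-1, which catalyses the limiting step of glutathione synthesis (0.39 ± 0.15, adjusted p = 0.0776). Of 21 antioxidant enzymes 1 rose and 3 fell (4.76% and 14.3%), and the 1 rise was lost on leaving out any array but 0-day array 3. The glutathione peroxidase gpx-3 read 8.21, 8.56 and 9.08 and then 5.28, 4.66 and 4.58 (-3.78 ± 0.30, 13.7-fold, adjusted p = 2.2e-07, control soil -2.17), and the superoxide dismutase sod-3 was not called (-0.51 ± 0.25, adjusted p = 0.174). Small heat shock proteins fell in 4 and rose in 1 of 12 (2 rises and 4 falls without 4-month array 1, median -0.38). The falls included hsp-12.6, from 9.3, 10.03 and 9.54 to 5.84, 5.80 and 5.82 (-3.80 ± 0.30, 13.9-fold, adjusted p = 2.4e-07, control soil -1.35), and hsp-12.2 (-2.04 ± 0.20). The heat-inducible hsp-16.2 was not called (0.64 ± 0.28, adjusted p = 0.124). Cytosolic chaperones rose in 4 of 11, with hsp-110 at 0.66 ± 0.14, and endoplasmic reticulum stress genes in 3 of 15 (1 without 0-day array 2, 4-month array 2 or 4-month array 3, and 5 with array weights).

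Immune genes divided by family. Infection response genes rose: 6 of 8 irg genes were higher and 1 lower, with a median of 1.58 (control soil 0.45). The intestinal response gene irg-5 read 6.58, 7.04 and 7.34 at 0 days and 10.36, 10.45 and 10.69 at 4 months (3.51 ± 0.25, 11.4-fold, adjusted p = 6.1e-08), and irg-6 went from 3.37, 3.26 and 3.83 to 6.69, 6.82 and 6.95 (3.33 ± 0.22, 10.1-fold, adjusted p = 1.9e-08). At 14 days irg-6 was higher still, at 8.43, 8.31 and 8.50. The change of irg-4 was 2.74 ± 0.29 and that of irg-3, the 1 that fell, -1.53 ± 0.20. The gene dod-24, of the DAF-16 list, rose by 2.40 ± 0.18. For irg-4, irg-5 and irg-6 the rise exceeded that in control soil (-0.48, 2.09 and 1.29) by the test, a call that irg-5 lost without control 4-month arrays 1 and 3 and on leaving out 7 of the 12 arrays singly.

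Antimicrobial peptide genes gave calls in both directions. The epidermal peptide gene nlp-29, which the skin switches on after wounding or fungal infection, read 3.84, 4.12 and 4.66 and then 6.20, 6.18 and 6.32 (2.03 ± 0.23, 4.07-fold, adjusted p = 9.1e-06), against 7.29, 6.85 and 7.10 in control soil at 0 days. The caenacin cnc-4, another epidermal peptide, changed by 1.53 ± 0.16. The antibacterial factor-related genes abf-5 (-3.06 ± 0.19) and abf-6 (-2.28 ± 0.21) fell, as they did in control soil (-1.89 and -1.47). In all, 8 of 25 antimicrobial peptide genes rose and 3 fell (median 0.33, control soil -0.35). Of 247 C-type lectins, sugar-binding proteins many of which respond to microbes, 13 rose and 40 fell (8 and 37 without 4-month array 3). The lectin clec-60 went from 9.44, 9.62 and 9.86 to 5.61, 5.11 and 5.22 (-4.33 ± 0.25, 20.0-fold, adjusted p = 5.5e-09, control soil -3.43), and clec-174 in the other direction, from 4.57, 5.25 and 5.66 to 9.05, 8.47 and 9.46 (3.84 ± 0.40, 14.3-fold, adjusted p = 4.4e-06). The dim clec-33 changed by -2.19 ± 0.20. Lysozymes and saposin-like genes, which attack bacterial cells, fell in 16 and rose in 2 of 44 (median -0.41). Among the saposin-like genes spp-1 fell (-1.51 ± 0.18), while spp-4 (1.79 ± 0.17) and spp-17 (2.87 ± 0.39) rose.

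The fip and fipr families gave 2 rises and 7 falls in 35 genes (1 and 6 without 4-month array 2). In this family fipr-22 read 5.75, 7.36 and 6.83 at 0 days and 10.36, 10.03 and 9.86 at 4 months (3.43 ± 0.29, 10.8-fold, adjusted p = 4.1e-07), and control arrays were at 10.45, 10.49 and 10.08 at 0 days and 10.49, 10.38 and 10.27 at 4 months. Of 37 pals genes, markers of the response to intracellular pathogens, 6 fell and 0 rose (0 rises and 3 falls without 0-day array 2), and with only the 6 arrays compared 12 fell and 2 rose. Control soil gave 19 falls. The marker pals-5 changed by -1.01 ± 0.22 and pals-31 by -1.44 ± 0.15. F-box A genes rose in 17 and fell in 7 of 188 (10 and 5 without 4-month array 2, 8 and 5 without 4-month array 3), and MATH and BATH genes in 10 and 5 of 81 (between 5 and 8 rises on leaving out single arrays, 5 without 0-day array 2 or 4-month array 2 and 6 without 0-day array 3 or 4-month array 1 or 3). Proteasome subunits rose in 5 of 33 (2 without 0-day array 2 or 4-month arrays 2 or 3, 3 without 4-month array 1, 3 after centring, 12 with array weights). As lists, these 3 were near or below the background shares of 12% higher and 10.2% lower, apart from the proteasome's 15.2% higher. Within the MATH and BATH list the families differed. The bath genes rose in 9 (26.5%) and fell in 1 of 34, and the math genes rose in 1 (2.13%) and fell in 4 of 47. Many members were dim, with a mean under 4 for 131 F-box A genes and 55 MATH and BATH genes.

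Enzymes that modify foreign compounds fell more often than they rose, and the list of ABC transporters rose more often than it fell. Glutathione S-transferases fell in 12 and rose in 1 of 43 (2 rises and 9 falls without 0-day array 2 or 4-month array 3, 3 rises and 12 falls without 0-day array 3). The transferase gst-33 (-2.11 ± 0.26) fell in both soils, gst-12 fell from 7.25, 7.10 and 7.02 to 5.66, 5.50 and 5.59 (-1.54 ± 0.16, 2.91-fold, adjusted p = 4.9e-06) and gst-9 rose from 4.24, 5.13 and 4.84 to 6.94, 6.88 and 7.10 (2.24 ± 0.20, 4.71-fold, adjusted p = 7.1e-07). For gst-9 control soil held 8.26, 7.79 and 7.93 and 8.11, 8.05 and 8.41, above every nZVI array. UDP-glucuronosyltransferases fell in 20 and rose in 7 of 67, with ugt-66 at -1.89 ± 0.26, and cytochrome P450 genes fell in 15 and rose in 6 of 74. The P450 gene cyp-36A1 went up, from 5.53, 5.74 and 5.77 to 7.75, 8.0 and 7.91 (2.21 ± 0.16, 4.61-fold, adjusted p = 9.5e-08). ABC transporters, the membrane pumps of the list, rose in 18 and fell in 8 of 47 (median 0.25, control soil 0.07 with 0 rises), and in 11 and 6 without 4-month array 2. The half-transporter haf-7 read 7.51, 7.36 and 7.28 and then 8.79, 8.82 and 8.73 (1.40 ± 0.17, 2.64-fold, adjusted p = 2.6e-05), and the P-glycoprotein pgp-14 changed by -2.29 ± 0.20. Of 14 P-glycoprotein (pgp) genes 3 rose and 4 fell. The list's soil difference was called for 8 genes higher and 4 lower.

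Lysosomal lipases, which worms raise when food is short, fell in 4 of 9 genes and rose in none (1 rise without nZVI 14-day array 2) (median -0.52, control soil -0.57). The lysosomal lipase lipl-1 read 8.17, 8.24 and 8.17 at 0 days and 5.46, 5.32 and 5.08 at 4 months (-2.91 ± 0.13, 7.49-fold, adjusted p = 9.3e-10), against -1.72 ± 0.13 in control soil, and lipl-3 went from 5.38, 5.56 and 5.55 to 2.63, 2.88 and 2.69 (-2.77 ± 0.18, 6.80-fold, adjusted p = 2.1e-08). For both the soil difference was called (adjusted p = 0.00197 and 0.00136). The third, lipl-2, fell by 1.38 ± 0.27. Markers of bacterial food and fasting fell in 8 and rose in 2 of 17 (median -0.38), and this list shares lipl-1 and acdh-1 with the lipid lists. Digestive proteases fell in 8 and rose in 4 of 28, with 4 rises and 5 falls without 0-day arrays 1 or 3, 3 rises and 4 falls without 0-day array 2, 3 rises and 5 falls without 4-month array 2, 4 rises and 4 falls without 4-month array 3. The cathepsin B-like cpr-2 went from 7.17, 7.90 and 8.06 to 4.12, 4.04 and 3.63 (-3.78 ± 0.28, 13.7-fold, adjusted p = 8.8e-08) and the aspartyl protease asp-9 from 5.87, 6.74 and 6.36 to 2.45, 2.58 and 2.74 (-3.74 ± 0.64, 13.4-fold, adjusted p = 5.5e-04), while asp-17 rose (1.28 ± 0.14). At 14 days asp-9 read 6.64, 2.84 and 6.38, with array 2 low as for scl-11. The intestinal peptide transporter pept-1 changed by -1.12 ± 0.22, and of 13 intestine markers 2 fell (1 without 0-day array 2 or 3 or 4-month array 3) and none rose. That list averaged 8.82 to 8.96 at 0 days and 8.67 to 8.75 at 4 months.

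In lipid metabolism, beta-oxidation genes rose in 17 and fell in 8 of 61 (12 and 5 without 0-day array 2, 11 and 6 without 4-month array 2, 15 and 5 without 4-month array 3). The acyl-CoA dehydrogenase acdh-1 rose by 2.00 ± 0.21, close to its control change of 1.68, and the acyl-CoA synthetase acs-3 fell by 1.69 ± 0.21. Fatty acid synthesis genes rose in 6 and fell in 8 of 26. Fatty acid synthase, fasn-1, read 10.26, 10.25 and 10.22 and then 11.15, 11.05 and 10.96 (0.81 ± 0.13, 1.75-fold, adjusted p = 3.1e-04), and the desaturase fat-3 fell (-1.09 ± 0.12) while the dim fat-7 rose (1.24 ± 0.26). Glycolytic genes rose in 5 and fell in 2 of 19, with 4 and 1 without 0-day array 1 or 4-month array 2, 3 and 1 without 0-day array 2, 5 and 1 without 0-day array 3 or 4-month array 3, 3 and 2 without 4-month array 1. Subunits of the vacuolar proton pump fell in 7 and rose in 1 of 19 (4 falls without 0-day array 2, 0-day array 3 or 4-month array 3), with vha-5 at -0.99 ± 0.18 and vha-17 at -0.85 ± 0.14. All 12 measured respiratory chain genes of the mitochondrial genome had lower means at 4 months, with a median of -0.90 (control soil -0.04), and 4 were called. All 12 were called with only the 6 arrays compared and 7 with array weights, but 1 without 0-day array 1 or 4-month arrays 2 or 3, 2 without 0-day array 2. The ATP synthase subunit ATP6 read 10.77, 10.51 and 10.27 and then 9.31, 9.45 and 9.12 (-1.22 ± 0.32, 2.33-fold, adjusted p = 0.0115), and its soil difference was not called (adjusted p = 0.153). Respiratory chain genes of the nucleus rose in 5 and fell in 7 of 43 (6 and 4 without 0-day array 1, 2 and 4 without 0-day array 2, 3 and 10 without 4-month array 1, 3 and 3 without 4-month array 2, 4 and 4 without 4-month array 3), and ribosomal protein genes in 1 and 4 of 78 (3 and 1 without 0-day array 1, 1 and 1 without 0-day array 2 or 4-month array 2, 1 and 16 without 4-month array 1, 1 and 0 without 4-month array 3, and 3 and 13 with array weights).

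Of the muscle list, 3 genes of the pharynx, the feeding organ, fell in both soils. The pharyngeal troponin C gene tnc-2 read 10.20, 10.53 and 10.19 at 0 days and 7.67, 6.75 and 6.61 at 4 months (-3.29 ± 0.28, 9.81-fold, adjusted p = 4.9e-07, control soil -2.17). The pharyngeal troponin I tni-4 (-2.35 ± 0.19) and myosin myo-1 (-1.77 ± 0.16) fell with it, and no soil difference was called for these 3. Over the muscle list 5 of 22 rose and 9 fell (median -0.22), and 3 and 9 without 0-day array 1, 2 and 10 without 4-month array 1, 3 and 8 without 4-month array 2. The list averaged 9.41 to 9.60 at 0 days and 8.96 to 9.17 at 4 months. Histone genes fell in 2 of 9 (1 without 0-day array 2 or 4-month array 3), osmotic response genes in 6 of 18, and DAF-16 targets rose in 2 and fell in 4 of 16.

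**Figure D4:**
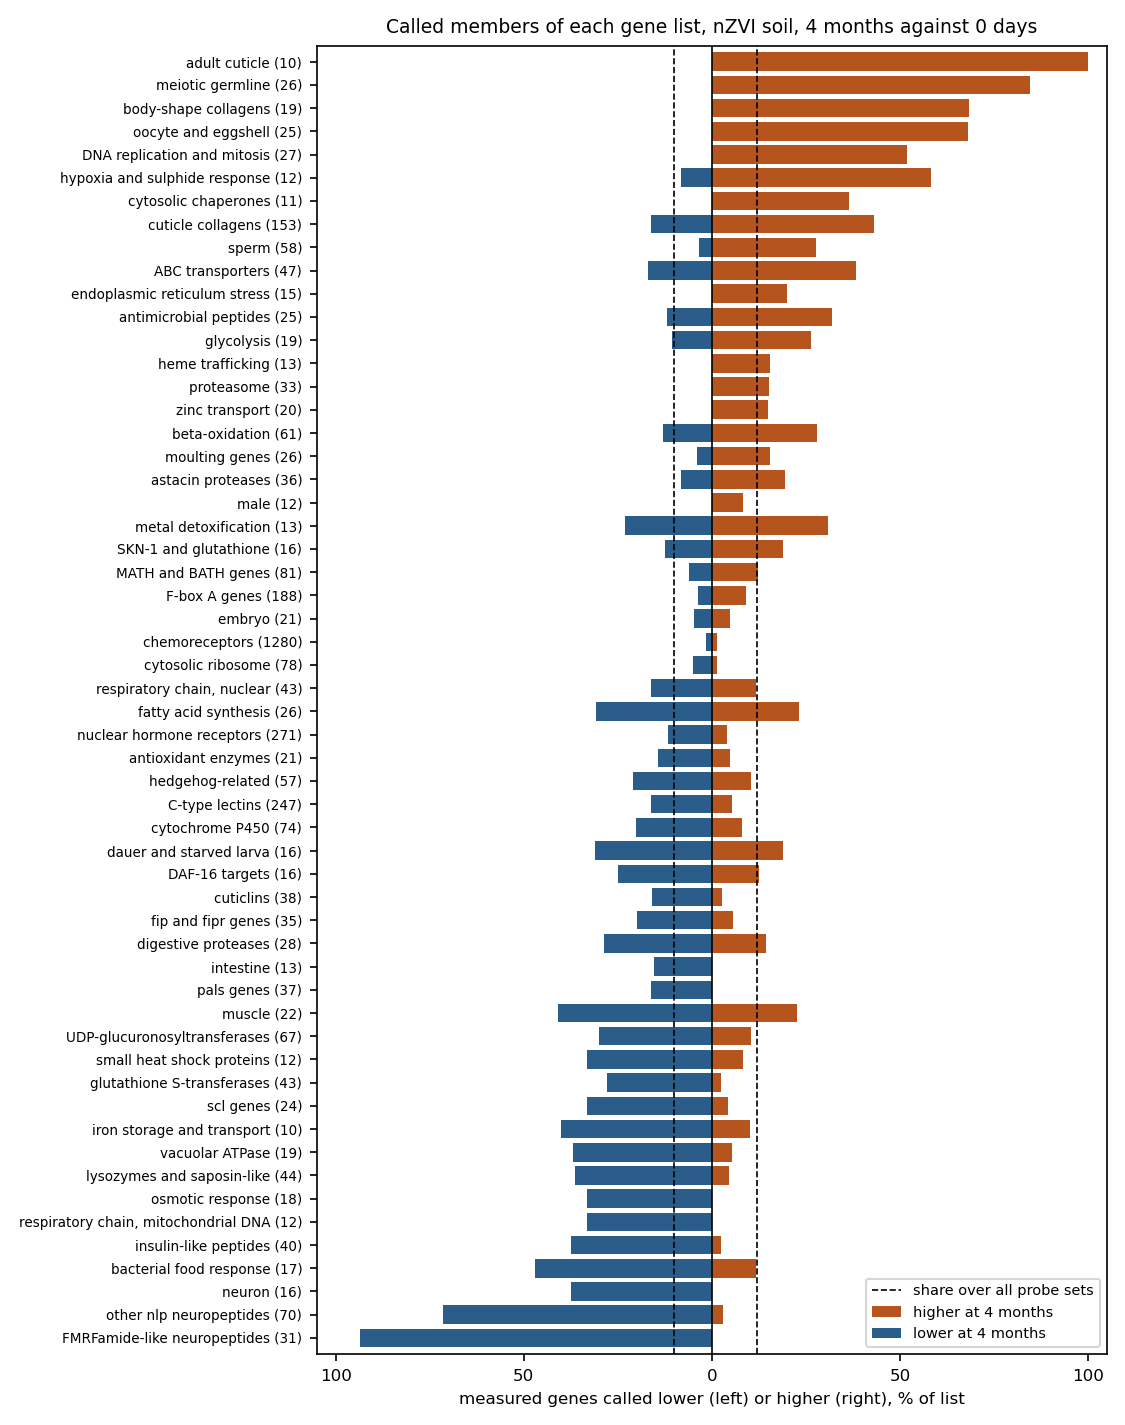
Share of measured genes called lower (left, blue) or higher (right, brown) at 4 months against 0 days in nZVI soil for each list of at least 10 measured genes (number in brackets); dashed lines are the shares over all probe sets, 12% higher and 10.2% lower. Adult cuticle (10 of 10 higher) and FMRFamide-like neuropeptides (29 of 31 lower) are at the ends.

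What the nZVI worms shared with the control worms over the same interval is shown only in part by the calls in both soils. Of 5684 single-symbol probe sets called in nZVI soil, 1245 were also called in control soil, which is 21.9% of the nZVI calls and 51.8% of the 2404 control calls, and 1192 of these moved in the same direction. The soil difference itself was called for 1107 single-symbol probe sets. For 872 of them the nZVI change was called in the same direction, and for 10 in the opposite direction. A probe set called in nZVI soil alone, without a called soil difference, is shown neither as shared nor as different. With every array centred on its median the split of the soil difference over all probe sets moved from 841 higher and 384 lower (68.7% higher) to 605 and 446 (57.6%). The falls of tnc-2, tni-4 and myo-1 and of col-185, grl-20, col-36, col-2 and col-37 were called in control soil too. The rises of bli-1, rol-1 and sqt-1 and the falls of ftn-1, scl-11 and cpr-2 were not called there and differed between soils by the test, a call that scl-11 alone of these 6 lost without control 4-month arrays 1 and 3.

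**Figure D5:**
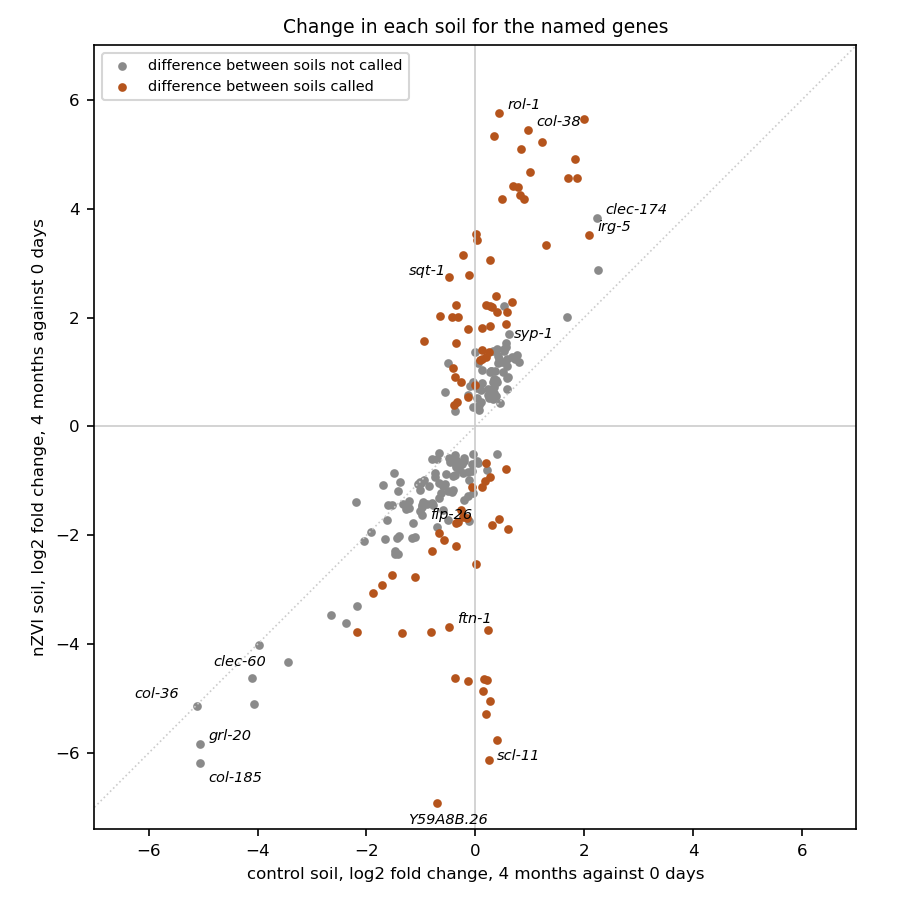
Log2 fold change from 0 days to 4 months in nZVI soil (vertical) against control soil (horizontal) for the 242 genes the naming rule gave, of which the text uses a part; the dotted line marks equal change and brown points are genes with a called difference between soils. Y59A8B.26 fell by 6.93 in nZVI soil and 0.70 in control soil, whereas col-36 fell by 5.14 and 5.12.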

How the data were processed

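Per the submitters' processing notes, RMA and the Transcriptome Analysis Console made the values deposited by the authors, which are log2 signals per probe set. RMA normalises quantiles between arrays, so a shift shared by most genes may be reduced or absent in them. The deposited arrays still differed, with medians from 3.847 to 3.992 and interquartile ranges from 3.702 to 4.209. The tool versions, like the genome build, were not given in the sources used here. All 18 columns of values were matched to samples by name. Of 28387 probe sets 25546 have 1 gene symbol in the platform annotation, 646 have several and 2195 have none. By Entrez identifier 25495 symbols could be updated, and 57 of 25478 genes have more than 1 probe set.

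The log2 values were fitted with limma 3.58.1 in R 4.3.3 (lmFit, contrasts.fit and eBayes), with 1 coefficient for each of 6 groups over 18 arrays, two-sided, and with Benjamini-Hochberg adjustment over 28387 probe sets. The fit was tested on simulated data. The difference between soils is the nZVI change minus the control change. With 3 arrays per group, precision is limited by their number.

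The 60 gene lists were matched by symbol taking for each gene the probe set of highest mean, and 19 listed names had no such probe set. The mitochondrial list was widened to RefSeq symbols after the files were seen. Genes were named by a rule: the 15 largest rises and the 15 largest falls among called single-symbol probe sets without overlap, up to 4 called members of each list by smallest p, and always ftn-1, ftn-2, fpn-1.2, mtl-1, mtl-2, cdr-1, numr-1, hsp-16.2, gst-4, gcs-1, sod-3, vit-2 and col-19. It gave 242 genes, of which the text uses a part. Members and lists were chosen with earlier results of these data known. Alternatives were other sets of arrays, centring, a filter on dim probe sets, array weights, other call rules and a replicate block.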

Additional observations from a re-analysis of the deposited data

Results flagged for a closer look

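Of the 138 genes named above, with numr-2 left out of the count, 68 changed between 0 days and 4 months by different amounts in the 2 soils. This is by the test of the difference itself. In 41 the nZVI change was the higher and in 27 the lower. The naming rule favoured large nZVI changes, which are part of that difference. Over all probe sets the difference was called for 4.32%. Values below are the nZVI change minus the control change, in log2 units. For the cuticle genes that rose, the difference was 5.32 for rol-1, 4.48 for col-38, 4.24 for bli-2, 4.00 for col-138, 3.73 for col-73, 3.68 for col-133, 3.66 for bli-1, 3.62 for bli-6, 3.43 for col-63 and 3.29 for col-71. In other collagens that rose it was 3.39 for sqt-1, 3.08 for col-162, 2.90 for sqt-2, 2.86 for col-161 and 2.79 for dpy-5. Among genes with clone names and the hedgehog-related family it was 5.00 for E01G4.6, 3.65 for Y51H7C.13, 2.70 for Y51H7C.1 and 1.33 for grl-4. For the falls not seen in control soil it was -6.37 for scl-11, -6.23 for Y59A8B.26, -6.16 for col-108, -5.48 for spp-11, -5.33 for scl-12, -5.0 for fipr-25, -4.87 for scl-13, -4.80 for T26C12.2, -4.53 for tyr-3 and -4.25 for T05B4.12. In the stress and metal genes it was -3.21 for ftn-1, -2.55 for smf-2, 1.48 for cdr-1, 1.12 for hmt-1, 2.45 for sqrd-1, 2.32 for phy-2, 1.28 for nit-1, 0.78 for gcs-1, -2.45 for hsp-12.6 and -1.60 for gpx-3. Immune genes gave 3.23 for irg-4, 2.04 for irg-6, 1.42 for irg-5, 2.02 for dod-24, 2.68 for nlp-29, 1.89 for cnc-4, 3.40 for fipr-22, 1.91 for spp-4, -1.84 for clec-33 and -1.18 for abf-5. For detoxification genes and transporters the values were 2.04 for gst-9, -1.28 for gst-12, 1.94 for cyp-36A1, -2.50 for ugt-66, 1.28 for haf-7, -1.49 for pgp-14 and -1.24 for pept-1. Metabolic and digestive genes gave -1.18 for lipl-1, -1.66 for lipl-3, -2.96 for cpr-2, -3.97 for asp-9, -1.53 for acs-3 and 1.08 for fasn-1. For reproductive and hormone genes they were 1.70 for fer-1, 1.14 for spe-6, 2.59 for spe-36, 1.61 for vit-4, -1.50 for ins-20 and -1.41 for ins-8. 

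Without control 4-month arrays 1 and 3 all 68 differences kept their sign, and 49 were still called. The 19 others were scl-11, spp-11, tyr-3, scl-13, T26C12.2, T05B4.12, grl-4, fer-1, spe-6, spe-36, ins-20, ins-8, smf-2, hmt-1, gcs-1, irg-5, abf-5, asp-9 and haf-7. Leaving out single arrays, 56 of the 68 stayed called each time. The call was lost in at least 1 such case for T05B4.12, vit-4, spe-6, ins-8, smf-2, hmt-1, gcs-1, gpx-3, irg-5, abf-5, asp-9 and pept-1. The explanation of these differences was not tested.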

How the results depend on the processing

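The number of probe sets called between 4 months and 0 days in nZVI soil, 6298, stayed within 1.5 times of that value with only the 6 arrays compared, centring, the filter on a mean log2 of at least 4, array weights, and a trended robust fit. It was 4115 to 5565 on leaving out single arrays (lowest without 4-month array 2), 2334 by a rule of 2-fold at unadjusted p under 0.05 and 2257 with a 2-fold change at an adjusted p under 0.05. Under both 2-fold rules falls outnumbered rises. Leaving out nZVI array 2 at 14 days, an alternative chosen after seeing the data, gave 6922. The difference between soils was less steady than the nZVI change. It was called for 1225 probe sets, and for 2490 with array weights, 1953 by the unadjusted 2-fold rule, and 616 (without nZVI 4-month array 2) to 3464 (without control 4-month array 2) on leaving out single arrays. Without control 4-month arrays 1 and 3, also chosen after seeing the data, it was called for 424 (48.8% of them higher, in place of 68.7%), where the 1 array left is assumed to vary like the other groups. Centring gave 605 higher and 446 lower in place of 841 and 384. These causes were not tested.

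Same-numbered nZVI arrays of the 2 times deviated from their group means with r = 0.0256, -0.113 and 0.0931, so no pairing by replicate number was seen for the nZVI change. Between nZVI and control arrays of 4 months r was 0.374, 0.28 and 0.104, but between those of 0 days it was 0.0789, 0.0224 and 0.226. Differently numbered arrays reached like values, as 0.364 between control 4-month array 2 and control 0-day array 3. These values therefore cannot show whether the groups of the soil difference were paired. With a replicate block the nZVI change was called for 6313 probe sets and the soil difference for 1321, and no named gene lost the call of its nZVI change.

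For the 242 named genes, 3362 of 3611 recomputed changes kept their direction and side of the threshold, 245 lost the call, 3 gained it and 1 reversed. The reversal was numr-1, not called either way, at -0.10 (adjusted p = 0.849) without nZVI 0-day array 3, and its values on leaving out single arrays reached 0.50. Of the 138 genes counted in the text, mtl-2 alone lost its call when 1 array was left out. Of 900 recomputed list counts 704 stayed within 1.5 times and 196 did not. Probe sets near the array median have no detection call here, so changes from or to that level are limited by background.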

Other observations

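Beyond the lists, the 173 symbol families with at least 10 measured genes were counted after their values were seen, with no test. Those with the largest shares called higher were the following 5. Subunits of the Integrator complex, which processes small nuclear RNAs (ints), rose in 9 of 10 genes with a median log2 fold change of 0.79 (control soil 0.31). Nuclear pore proteins (npp) rose in 17 of 26 (median 0.63, control soil 0.28). The him genes, named for mutants with many males and often needed in meiosis, rose in 8 of 10 and share members with the germline list. WD-repeat genes (wdr) rose in 8 of 15, and cyclin-dependent kinases (cdk) rose in 5 and fell in 1 of 10. The share of all probe sets called higher was 12%.

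Outside the families that the lists cover, the 5 with the largest shares called lower were zig immunoglobulin-domain genes (7 of 13, and 1 higher), the nssp family (42 of 84, median -0.53, control soil -0.43), sodium-calcium exchangers or ncx (5 of 10), mfsd transporters (5 of 11) and spig genes (8 of 18, and 2 higher). Neuropeptide receptors of the npr family fell in 16 of 44 (median -0.43, control soil -0.04) and dmsr receptors in 5 of 16. No member was called lower in some other families known from nerve cells, with 0 of 10 glutamate receptors (glr) and 0 of 32 guanylyl cyclases (gcy). All probe sets were called lower in 10.2%.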
